A study of Homo sapiens with 18 samples.

Results

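The genes described here join targets of the transcription factor NRF2 with genes that build glutathione or restore reduced thiols. The 10 are GCLC, GCLM, GSS, GSR, TXNRD1, NQO1, HMOX1, SLC7A11, SRXN1 and OSGIN1. They were chosen by gene name among the 23622 genes of the count table, and all 10 were found there. A2780 is a cisplatin-sensitive human ovarian carcinoma cell line, and Acis (A2780cis) is the resistant line derived from it. Per the study's methods, Acis was given 1 µM cisplatin every 3 passages during culture. Each line was either left untreated or incubated with 200 µM cisplatin for 3 h. RNA-seq covered 3 replicates in each of these 4 groups, and ATAC-seq, which marks open chromatin, gave 1 peak list per group. Acis stands for resistance as 1 derived line, so that a difference between the lines cannot be told apart from other changes acquired while Acis was derived.

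Glutathione is a tripeptide of glutamate, cysteine and glycine that reacts with platinum drugs and with peroxides. Its synthesis starts with cystine import, passes through glutamate-cysteine ligase and ends with glutathione synthetase, and reductases that use NADPH return oxidized glutathione and thioredoxin to the reduced form. NRF2, encoded by NFE2L2, is held down by KEAP1 and, when released, binds antioxidant response elements together with small MAF proteins. Many platinum-resistant lines are known for raised glutathione or NRF2 activity.

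The 12 RNA-seq libraries held between 4130644 and 5072216 counts, and 15760 genes had enough counts to be tested, among them all 10 genes followed here. Levels are given as normalized read counts, that is, counts scaled to a common library size, and levels of different genes are compared only as RPKM (reads per kilobase of exon and scaled to library size). Per the study's methods the replicates of a group were separately seeded wells, so p-values measure the spread between such wells. In 6 pairs of replicates the libraries differed by less than counting noise, with ratios from 0.732 in untreated A2780 upward, and they were kept as separate libraries. Of 8 epithelial markers listed, 3 were in the table, and their summed level ran from 34.6 to 51.3 normalized counts in untreated A2780 and from 135 to 158 in untreated Acis. Of 8 markers of other cell types, 4 were in the table, led by the collagen gene COL1A1, and their sum ran from 840.0 to 963.7 in untreated A2780 and from 11.7 to 28.8 in untreated Acis. The epithelial sum was carried by KRT18, with a mean of 25.5 normalized counts in untreated A2780 and 143 in untreated Acis, while KRT8 had 15.6 and 4.05. EPCAM had 11 counts over the 3 untreated A2780 libraries and 2 over the 3 untreated Acis libraries. The part of these marker differences in the results on the lines was not tested.

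Without treatment the 2 lines differed in most of these genes, in both directions. Relative to A2780, Acis had higher OSGIN1, GCLC, GSR and TXNRD1 and lower SLC7A11, HMOX1, GCLM and NQO1. The 4 higher and 4 lower genes out of 10 compare with 28.2% of all tested genes higher and 30.6% lower in the same comparison (edgeR's quasi-likelihood test, Benjamini-Hochberg adjusted p below 0.05). The libraries of the lines did not overlap for 8 of the 10, beside 64.2% of all tested genes without overlap and 58.9% called in either direction. With a log2 difference of at least 1 as well, 1 gene was higher (OSGIN1) and 1 lower (SLC7A11), beside 6.99% and 12.2% of tested genes. The median log2 difference of the 10 genes was 0.05, beside -0.01 over all tested genes. By length-scaled level the genes spanned from 0.513 RPKM for OSGIN1 in untreated A2780 to 60.0 RPKM for GSR in untreated Acis.

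**Figure D1:**
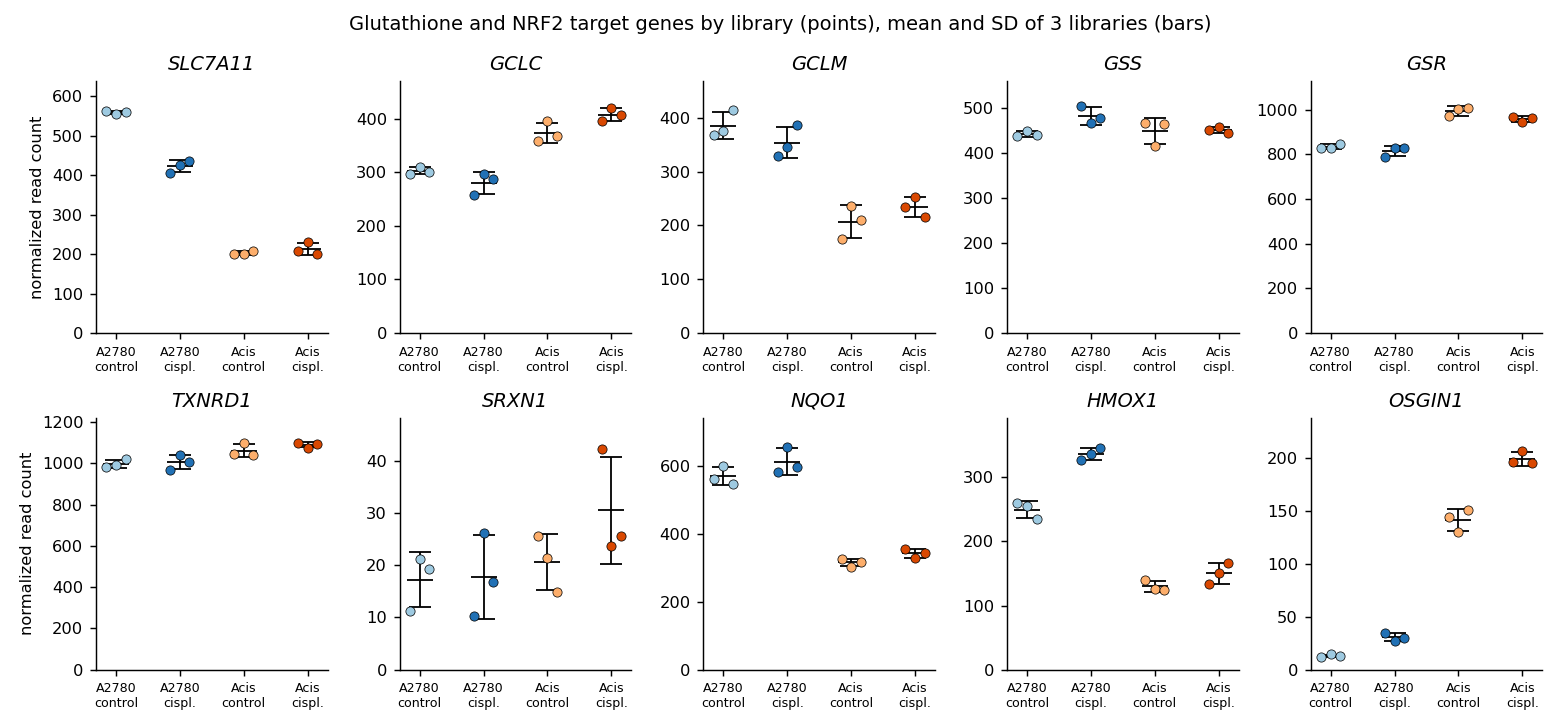
Normalized read counts of the 10 genes (vertical axis, from 0, a separate scale for each gene) in the 12 libraries, by line and treatment (horizontal axis). Points are libraries and bars are the mean and SD of 3 libraries, and OSGIN1 lies between 12.1 and 34.7 in A2780 and between 129.9 and 206.7 in Acis.

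SLC7A11 is the transporter subunit that brings cystine into the cell in exchange for glutamate (chr4:138164097-138242349, minus strand, GRCh38). Its normalized counts were 562.6, 555.8 and 559.3 in untreated A2780 and 199.6, 201.3 and 207.4 in untreated Acis. All 3 Acis libraries lay far below all 3 A2780 libraries. The log2 difference was -1.46 (SE 0.06, adjusted p = 3.62e-18 by edgeR's quasi-likelihood test), a level 2.76-fold lower in Acis. After cisplatin the A2780 libraries held 406.1, 427.0 and 436.1 and the Acis libraries 208.3, 231.3 and 201.4. The gap between the lines was then -0.98 on the log2 scale (SE 0.06, adjusted p = 4.39e-14). SLC3A2, which codes for the heavy chain that carries SLC7A11 to the membrane, was also lower in untreated Acis, by -0.46 (SE 0.04, adjusted p = 3.35e-10).

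Glutamate-cysteine ligase, the first and rate-limiting enzyme of glutathione synthesis, has a catalytic subunit, GCLC (chr6:53497341-53616970, minus strand), and a modifier subunit, GCLM (chr1:93885199-93909456, minus strand), and these moved in opposite directions between the lines. GCLC had 297.6, 310.6 and 301.0 normalized counts in untreated A2780 and 358.8, 395.1 and 368.1 in untreated Acis. GCLM had 367.6, 376.0 and 414.1 in untreated A2780 and 175.2, 236.4 and 209.7 in untreated Acis. In neither gene did the libraries of the lines overlap. GCLC was higher in Acis by 0.30 on the log2 scale (SE 0.06, adjusted p = 0.000111), and GCLM was lower by -0.89 (SE 0.08, adjusted p = 5.08e-10, a 1.86-fold lower level). After cisplatin the differences were 0.54 for GCLC (SE 0.06, adjusted p = 8.64e-09) and -0.59 for GCLM (SE 0.08, adjusted p = 3.97e-07).

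The ratio of GCLC to GCLM reads per kilobase of exon within a library, which does not depend on library scaling, gives the same contrast. It was 0.510, 0.520 and 0.458 in untreated A2780 and 1.29, 1.05 and 1.11 in untreated Acis. The means were 0.496 ± 0.0335 and 1.15 ± 0.125 (SD, n = 3 each), and an exact two-sided permutation test gave p = 0.1, the smallest value that 3 against 3 libraries allow. After cisplatin the means were 0.499 ± 0.0356 in A2780 and 1.10 ± 0.0792 in Acis (SD, n = 3, exact permutation p = 0.1). This ratio was computed after the levels of both genes had been seen.

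The promoter of GCLM is shown because it holds the only match to the antioxidant response element core, TGACNNNGC, among the printed starts of the ligase subunits. The 300 bases run from 250 before to 50 after the gene start in RefSeq (GRCh38.p14, chr1:93909381-93909680, minus strand), with the match in capitals, its first base at -34 as read on the gene's strand.
GCLM: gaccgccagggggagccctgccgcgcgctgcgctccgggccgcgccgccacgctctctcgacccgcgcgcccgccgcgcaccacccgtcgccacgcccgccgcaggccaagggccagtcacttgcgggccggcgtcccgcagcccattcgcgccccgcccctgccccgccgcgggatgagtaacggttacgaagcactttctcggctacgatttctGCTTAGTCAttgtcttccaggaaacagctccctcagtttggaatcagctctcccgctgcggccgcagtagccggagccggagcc
No match was found in the same window of GCLC, while the 300 bases around a summit 3 kb before its start (GRCh38, chr6:53547952-53548251), in a region with a peak in all 4 lists, held 1 match, TGACTGCGC. The core was present in 13.3% of 35116 RefSeq promoters of this length, on either strand. Such a match is a description of letters and not a measured binding site.

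Glutathione synthetase, GSS (chr20:34928432-34956027, minus strand), which adds glycine in the last step, was nearly level across the 4 groups. Its normalized counts were 436.6, 448.1 and 439.7 in untreated A2780 and 465.0, 414.3 and 462.8 in untreated Acis, with overlapping libraries. The log2 difference was 0.02 (SE 0.05, adjusted p = 0.811). After cisplatin the difference was -0.10 (SE 0.05, adjusted p = 0.0945).

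Glutathione reductase, GSR (chr8:30678066-30727846, minus strand), which regenerates reduced glutathione, was higher in Acis. It had 827.5, 826.9 and 848.5 normalized counts in untreated A2780 and 970.3, 1001.1 and 1009.8 in untreated Acis. The log2 difference was 0.25 (SE 0.04, adjusted p = 1.56e-06), and it was 0.24 after cisplatin (SE 0.04, adjusted p = 3.44e-06). Thioredoxin reductase, TXNRD1 (chr12:104215779-104350307, plus strand), does the same for thioredoxin. It held 982.4, 992.3 and 1020.3 normalized counts in untreated A2780 and 1046.7, 1098.0 and 1039.5 in untreated Acis, so that the lines were separate but close. The log2 difference of 0.09 (SE 0.04, adjusted p = 0.0414) was lost under 11 of 21 other ways of processing, with adjusted p from 0.0189 to 0.286. After cisplatin it was 0.12 (SE 0.04, adjusted p = 0.00635) and was lost under 4 of 21.

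Sulfiredoxin, SRXN1 (chr20:646615-653200, minus strand), which restores overoxidized peroxiredoxins, was sparse. The untreated A2780 libraries held 12, 22 and 18 counts and the untreated Acis libraries 24, 20 and 13. With cisplatin the counts were 11, 27 and 17 in A2780 and 44, 24 and 26 in Acis. The treated lines overlapped, although the test gave a log2 difference of 0.79 (SE 0.28, adjusted p = 0.0173), and 3 of 20 alternatives lost this call.

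NQO1, the quinone reductase often read as a marker of NRF2 activity (chr16:69706996-69726668, minus strand), was lower in Acis. It had 563.5, 601.9 and 548.6 normalized counts in untreated A2780 and 325.9, 304.6 and 319.1 in untreated Acis. The log2 difference was -0.85 (SE 0.06, adjusted p = 8.41e-13), and it was -0.84 after cisplatin (SE 0.06, adjusted p = 3.15e-13). HMOX1, heme oxygenase 1, which breaks heme down to biliverdin, carbon monoxide and iron (chr22:35380361-35394214, plus strand), was lower in Acis as well. It had 259.4, 254.8 and 234.8 in untreated A2780 and 140.1, 125.7 and 124.2 in untreated Acis, a log2 difference of -0.94 (SE 0.08, adjusted p = 1.37e-10). After cisplatin the difference was -1.16 (SE 0.07, adjusted p = 8.56e-14).

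OSGIN1, an oxidative stress-induced growth inhibitor (chr16:83931311-83966332, plus strand), differed most between the lines among the 10 genes. Its normalized counts were 12.1, 14.4 and 12.8 in untreated A2780 and 144.4, 129.9 and 150.5 in untreated Acis. Every Acis library exceeded every A2780 library, with or without cisplatin. The log2 difference was 3.42 (SE 0.15, adjusted p = 3.4e-17), a 10.7-fold higher level in Acis, where the untreated A2780 libraries held 13, 15 and 12 counts. After cisplatin it was 2.69 (SE 0.11, adjusted p = 6.49e-18). OSGIN1 was singled out by the study from these same libraries, so its direction is not independent evidence. By real-time PCR in additional cell lines, the study reported a rise with cisplatin for the genes it tested, with OSGIN1 as the exception.

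**Figure D2:**
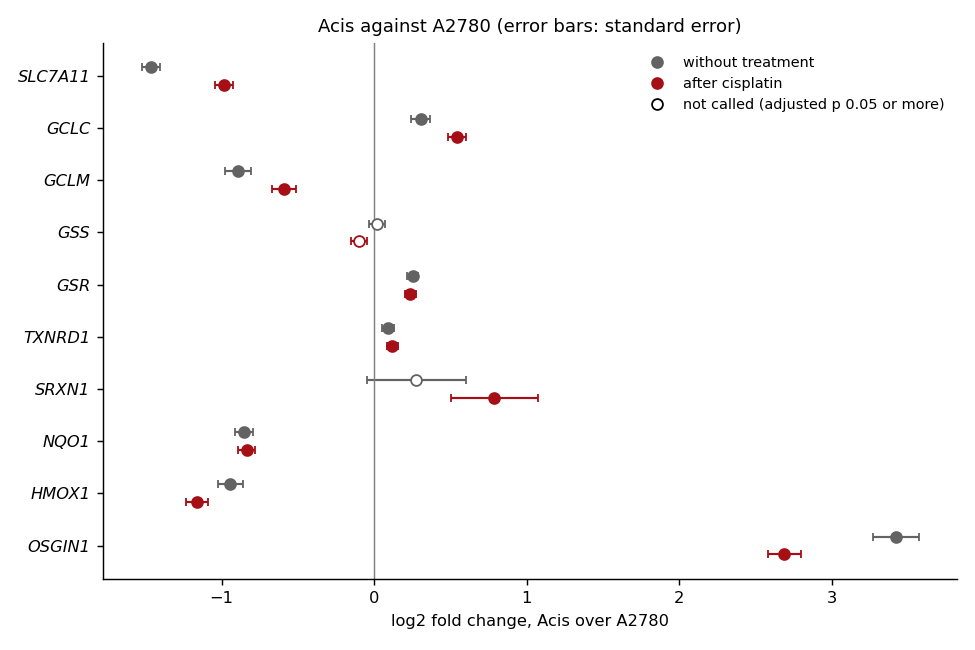
Log2 fold change of Acis over A2780 (horizontal axis) for each gene (vertical axis), without treatment and after cisplatin. Points are edgeR estimates, error bars are standard errors and open points had an adjusted p of 0.05 or more, with OSGIN1 at 3.42 and SLC7A11 at -1.46 at the ends in the untreated lines.

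After cisplatin 5 genes were higher in Acis, 4 were lower and 1 was not called, beside 31.8% of tested genes higher and 31.2% lower. The libraries of the lines did not overlap for 9 of the genes, beside 66.7% of all tested genes without overlap and 63% called in either direction. With a log2 difference of at least 1 as well, 1 was higher (OSGIN1) and 1 lower (HMOX1), beside 7.28% and 11.9%. The median log2 difference of the 10 was 0.01, beside -0.00 over all tested genes.

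Cisplatin itself changed fewer of these genes within 3 h. In A2780, 3 genes rose, 1 fell and 6 did not pass the test, where 21.2% of all tested genes rose and 28.2% fell. In Acis, OSGIN1 alone rose and none fell by edgeR's quasi-likelihood test, where 9.35% rose and 12.5% fell. By DESeq2, too, 0 of the 10 fell after cisplatin in Acis, beside 6.54% of all genes. That share is over all 23622 genes, low counts included, and not over the 15760 tested by edgeR. At an unadjusted p under 0.05, 0 fell as well, a rule whose share over all genes was not computed. Libraries with and without cisplatin did not overlap for 5 genes in A2780 and 4 in Acis, beside 57.3% and 34.2% of all tested genes without overlap and 49.5% and 21.8% called in either direction. With a log2 change of at least 1 as well, 1 gene rose (OSGIN1) and 0 fell in A2780, beside 4.14% and 1.48% of tested genes, and 0 rose and 0 fell in Acis, beside 1.64% and 0.374%. Scaled by library totals alone, 5 genes rose and 1 fell in A2780, beside 33.3% and 19.6% of all tested genes, and 3 rose in Acis, beside 14.7%. That scaling moved the median log2 change of all tested genes in A2780 from -0.01 to 0.10 and the share of its calls that were lower from 57.1% to 37.0%.

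OSGIN1 rose in both lines. In A2780 its normalized counts went from 12.1, 14.4 and 12.8 to 34.7, 27.1 and 30.4, and in Acis from 144.4, 129.9 and 150.5 to 195.8, 206.7 and 195.5. The treated libraries lay above all untreated ones in each line. The log2 change was 1.22 in A2780 (SE 0.22, adjusted p = 3.68e-05, 2.33-fold) and 0.49 in Acis (SE 0.08, adjusted p = 2.8e-05, 1.41-fold). The change was smaller in Acis by -0.73 (SE 0.23, adjusted p = 0.047), a call that 13 of 20 alternatives lost. Treated A2780 remained below untreated Acis in each library.

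HMOX1 rose in A2780, to 326.4, 336.9 and 345.7 normalized counts from at most 259.4, a log2 change of 0.43 (SE 0.06, adjusted p = 3.75e-06). In Acis it went from 140.1, 125.7 and 124.2 to 133.4, 151.6 and 166.0, with overlapping libraries and a log2 change of 0.21 (SE 0.09, adjusted p = 0.135). The difference between these changes was -0.22 (SE 0.11, adjusted p = 0.215), so that the lines were not shown to differ. The 500 tested genes nearest to HMOX1 in genomic length had a median change of 0.15 in A2780.

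SLC7A11 fell in A2780, by 0.40 on the log2 scale (SE 0.05, adjusted p = 8.3e-08). All 3 treated libraries lay below the untreated ones. In Acis the change was 0.08 (SE 0.07, adjusted p = 0.588). The changes differed by 0.48 (SE 0.09, adjusted p = 0.000293), and this call held under all 20 alternatives, with adjusted p between 0.000165 and 0.006. The 500 tested genes nearest to SLC7A11 in length had median changes of -0.26 in A2780 and -0.05 in Acis, and the part of gene length in the fall was not tested.

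GSS rose slightly in A2780, from 436.6, 448.1 and 439.7 to 503.6, 465.7 and 476.4 (log2 change 0.13, SE 0.05, adjusted p = 0.0416), and 12 of 21 alternatives lost this call. GCLC and GCLM did not pass the test in either line. Their changes were -0.11 and -0.12 in A2780 and 0.12 and 0.18 in Acis. The difference of the changes was 0.24 for GCLC (SE 0.09, adjusted p = 0.0536) and 0.30 for GCLM (SE 0.12, adjusted p = 0.0782). Among the 10 genes, 1 effect of cisplatin was called higher in Acis (SLC7A11) and 1 lower (OSGIN1), beside 13.4% and 5.48% of all tested genes, or 18.9% in either direction.

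Between their outermost annotated ends TXNRD1 and GCLC span 134529 and 119630 bases. The start used here for GCLC (chr6:53545101) and a second RefSeq start of TXNRD1 lie inside these spans. Genes nearest to the full spans in length had median log2 changes of -0.39 and -0.34 after cisplatin in A2780. TXNRD1 changed by 0.01 (SE 0.04, adjusted p = 0.812) and GCLC by -0.11 (SE 0.06, adjusted p = 0.155). Lengths counted from the inner starts were not compared, and the part of gene length was not tested. NQO1 changed by 0.10 in A2780 (SE 0.05, adjusted p = 0.095) and by 0.12 in Acis (SE 0.07, adjusted p = 0.233). GSR and SRXN1 did not pass the test in either line.

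**Figure D3:**
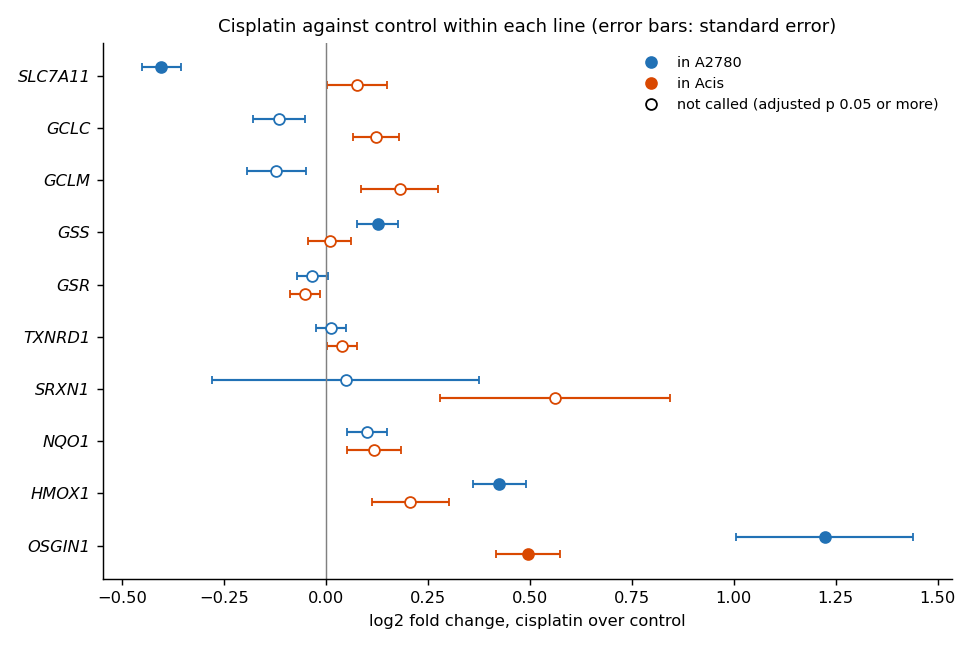
Log2 fold change of cisplatin over control (horizontal axis) for each gene (vertical axis) in A2780 and in Acis. Points are edgeR estimates, error bars are standard errors and open points had an adjusted p of 0.05 or more, with OSGIN1 the only gene past the test in both lines.

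Most of these genes had open chromatin at their start. A peak lay within 1000 bases of the annotated start of 8 genes in untreated A2780 and of 9 genes in each of the other lists. Over the 15708 tested genes with a position, 72.9% had such a peak in untreated A2780, 74.4% in treated A2780, 66.4% in untreated Acis and 70.7% in treated Acis. With 1 list per group there is no replicate error, so these are descriptions. In total 34 peak regions lay in or within 20000 bases of the genes, 18 of them in all 4 lists.

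OSGIN1 had a start peak in every list. Its fold enrichment over background was 7.23 in untreated A2780, 10.6 in treated A2780, 10.9 in untreated Acis and 13.6 in treated Acis. The medians over all peaks of those lists were 9.96, 8.79, 12.8 and 11.0. The summit lay at chr16:83953631 in both A2780 lists and at chr16:83953142 and chr16:83953114 in the untreated and treated Acis lists. The promoter of OSGIN1 is shown because it holds the Acis summits (RefSeq, GRCh38.p14, chr16:83952990-83953289, plus strand), with the letters TGACTCA of AP-1 in capitals. This window holds no match to TGACNNNGC. The A2780 summit lies outside this window, so the fold enrichments of the lines were read at different sites.
OSGIN1: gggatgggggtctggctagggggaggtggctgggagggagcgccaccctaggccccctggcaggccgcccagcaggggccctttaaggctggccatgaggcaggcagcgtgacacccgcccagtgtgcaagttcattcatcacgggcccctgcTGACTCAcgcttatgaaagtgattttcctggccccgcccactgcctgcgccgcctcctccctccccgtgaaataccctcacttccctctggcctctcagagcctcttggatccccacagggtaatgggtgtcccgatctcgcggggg
TGACTCA was present in 4.95% of the RefSeq promoters.

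HMOX1 was the only gene of the 10 that had a peak at its start in some lists and none there in another. The peak was missing from the untreated A2780 list and had a fold enrichment of 5.23 in treated A2780, 8.38 in untreated Acis and 8.78 in treated Acis, the line with less HMOX1 RNA. A second region, about 4.1 kb before the start, was in both A2780 lists (3.51 and 2.94) and in neither Acis list. Those values lie below the medians over all peaks of the A2780 lists, 9.96 and 8.79. The Acis lists hold fewer peaks, 24485 untreated and 27321 treated, beside 34979 and 32159 in A2780. A region missing from a list was therefore not shown to be closed. Of the 4 HMOX1 regions, 2 were in all 4 lists. The 300 bases around the summit of the region 4.1 kb before the start in untreated A2780 are shown because they hold 2 element cores, with TGACNNNGC matches on either strand in capitals (GRCh38, plus strand, chr22:35376898-35377197).
HMOX1 upstream: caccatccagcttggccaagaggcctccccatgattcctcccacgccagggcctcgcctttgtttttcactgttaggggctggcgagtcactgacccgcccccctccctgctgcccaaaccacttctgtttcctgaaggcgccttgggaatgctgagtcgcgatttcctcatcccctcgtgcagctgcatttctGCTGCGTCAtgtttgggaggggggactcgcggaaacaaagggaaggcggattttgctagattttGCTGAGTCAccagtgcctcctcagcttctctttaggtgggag
Of its 2 cores, 1 read TGACTCAGC. The longer TGACTCAGC contains the AP-1 letters and was present in 0.598% of all summit windows in untreated A2780. Over the windows at the 10 genes, 8 of 24 held a core in untreated A2780, 5 of 28 in treated A2780, 6 of 24 in untreated Acis and 4 of 21 in treated Acis, beside 13.6%, 13.4%, 13.4% and 13.4% of all windows.

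**Figure D4:**
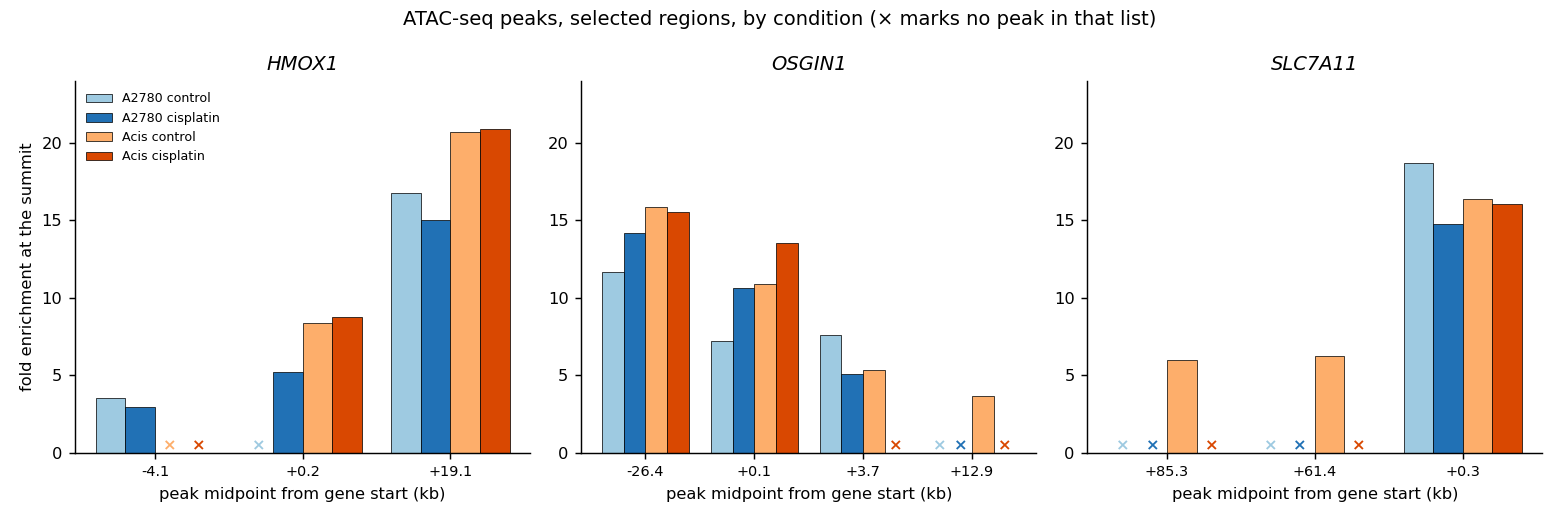
Fold enrichment of selected ATAC-seq peaks (vertical axis) at HMOX1, OSGIN1 and SLC7A11, by distance of the peak midpoint from the gene start in kb (horizontal axis), with 1 bar per condition and a cross where that list holds no peak. The HMOX1 start peak is missing only in untreated A2780, and the OSGIN1 start peak runs from 7.23 to 13.6.

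TXNRD1 had no peak at its annotated start in any list. Peaks of all 4 lists, with fold enrichment of 13.6, 9.85, 12.6 and 13.0, joined into 1 region (chr12:104286467-104287805). This joined region covers a second RefSeq start of the gene. That promoter is shown because the joined region covers it (RefSeq, GRCh38.p14, chr12:104286782-104287081, plus strand), with its 1 core match in capitals, first base at -102. The A2780 summits (chr12:104286978) lie within this window and the Acis summits (chr12:104287209 and chr12:104287217) past its end.
TXNRD1: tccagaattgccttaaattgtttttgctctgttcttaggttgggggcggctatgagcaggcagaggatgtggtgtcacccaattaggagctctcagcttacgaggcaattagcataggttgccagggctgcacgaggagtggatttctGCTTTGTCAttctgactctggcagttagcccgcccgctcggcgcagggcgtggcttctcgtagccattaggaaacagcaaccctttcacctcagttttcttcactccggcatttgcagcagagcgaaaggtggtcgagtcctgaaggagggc
SLC7A11, lower in Acis, had a start peak of 18.7 in untreated A2780, 14.8 in treated A2780, 16.4 in untreated Acis and 16.0 in treated Acis, beside list medians of 9.96, 8.79, 12.8 and 11.0. NQO1 had 1 region, at its start, with 22.4, 17.5, 23.5 and 25.4.

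The wider pathway was followed in 6 lists of 80 genes, of which 77 were in the table and 75 were tested. In the untreated lines 24 were higher and 24 lower in Acis, beside 28.2% and 30.6% of all tested genes, and after cisplatin again 24 and 24, beside 31.8% and 31.2%. In A2780, 26 rose and 15 fell after cisplatin, beside 21.2% and 28.2%. In Acis, 13 rose and 6 fell, beside 9.35% and 12.5%. Their median log2 differences were 0.00 between the untreated lines, 0.08 for cisplatin in A2780 and 0.03 in Acis.

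Of the 12 regulators of NRF2, 2 were higher and 5 lower in untreated Acis (28.2% and 30.6% of all tested genes). The small MAF genes, whose products pair with NRF2 on DNA, went different ways. MAFK was higher in Acis by 1.15 (SE 0.07, adjusted p = 8.35e-14) and MAFG lower by -0.79 (SE 0.06, adjusted p = 3.07e-12). MAFF had 116.6, 116.3 and 117.4 normalized counts in untreated A2780 and 363.9, 327.3 and 342.8 after cisplatin. In Acis it had 100.8, 94.8 and 80.9 before and 163.2, 185.1 and 155.2 after. MAFF rose by 1.56 in A2780 (SE 0.08, adjusted p = 8.95e-15) and by 0.86 in Acis (SE 0.10, adjusted p = 3.12e-07), and the rise was smaller in Acis by -0.70 (SE 0.13, adjusted p = 0.000448). SQSTM1, a receptor that sequesters KEAP1, rose by 0.53 in A2780 and by 0.23 in Acis. BACH1, a repressor that competes for the same elements, was lower in untreated Acis by -0.36 (SE 0.05, adjusted p = 6.42e-07).

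Of the 16 genes of glutathione use and turnover, 3 were higher and 6 lower in untreated Acis (28.2% and 30.6% of all tested genes). CHAC1, which degrades glutathione, had 288.3, 296.2 and 306.3 normalized counts in untreated A2780 and 100.8, 86.3 and 83.2 in untreated Acis, a log2 difference of -1.71 (SE 0.09, adjusted p = 7.38e-16). GPX8, a peroxidase of the endoplasmic reticulum, was lower by -1.39 (SE 0.08, adjusted p = 3.55e-15). OPLAH, which recycles 5-oxoproline to glutamate, was higher by 0.71 (SE 0.07, adjusted p = 3.9e-10).

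Of the 14 tested thioredoxin and peroxiredoxin genes, 4 were higher and 4 lower in untreated Acis (28.2% and 30.6% of all tested genes). The sestrins SESN2 and SESN1, induced under stress, were lower by -1.45 (SE 0.06, adjusted p = 1.88e-18) and -1.25 (SE 0.11, adjusted p = 9.61e-11). TXNIP, which binds thioredoxin, had 7.5, 13.5 and 17.1 normalized counts in untreated A2780 and 38.5, 42.6 and 35.4 after cisplatin, a log2 change of 1.63 (SE 0.23, adjusted p = 1.63e-06). In Acis TXNIP rose by 0.53 (SE 0.18, adjusted p = 0.0373).

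Of the 10 genes of NADPH supply, 5 were higher and 3 lower in untreated Acis (28.2% and 30.6% of all tested genes). ME1, malic enzyme, had 138.1, 142.3 and 154.8 normalized counts in untreated A2780 and no count in any of the 6 Acis libraries. Against a floor of 3 counts over the 3 untreated Acis libraries, ME1 was at least 133-fold lower in untreated Acis, and at least 110-fold lower after cisplatin on the same floor. NNT, the mitochondrial transhydrogenase, was higher in untreated Acis by 0.86 (SE 0.05, adjusted p = 1.97e-15).

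Of the 7 heme and iron genes, 3 rose and 1 fell after cisplatin in A2780 (21.2% and 28.2% of all tested genes). In Acis 0 rose and 0 fell (9.35% and 12.5%). Between the untreated lines 2 were higher and 1 lower in Acis (28.2% and 30.6%). The ferritin light chain FTL rose in A2780 by 0.21 (SE 0.04, adjusted p = 0.000195) and the transferrin receptor TFRC fell by 0.27 (SE 0.04, adjusted p = 9.37e-07). In Acis FTL changed by -0.004 and TFRC by 0.04 (adjusted p = 0.984 and 0.546 by edgeR's quasi-likelihood test). The changes differed between the lines by -0.22 for FTL and 0.31 for TFRC (adjusted p = 0.025 and 0.000189 by the same test). Of the 16 other tested NRF2 targets, 8 were higher and 5 lower in untreated Acis (28.2% and 30.6% of all tested genes). OSGIN2, a paralog of OSGIN1, was higher in untreated Acis by 1.08 (SE 0.05, adjusted p = 1.38e-16). The drug exporter ABCC1, which also carries glutathione conjugates, fell after cisplatin by 0.55 in A2780 (SE 0.04, adjusted p = 1.79e-11) and by 0.38 in Acis (SE 0.04, adjusted p = 1.74e-08). The study reported that genes lowered by cisplatin were longer, and the part of gene length in the fall of ABCC1 was not tested.

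**Figure D5:**
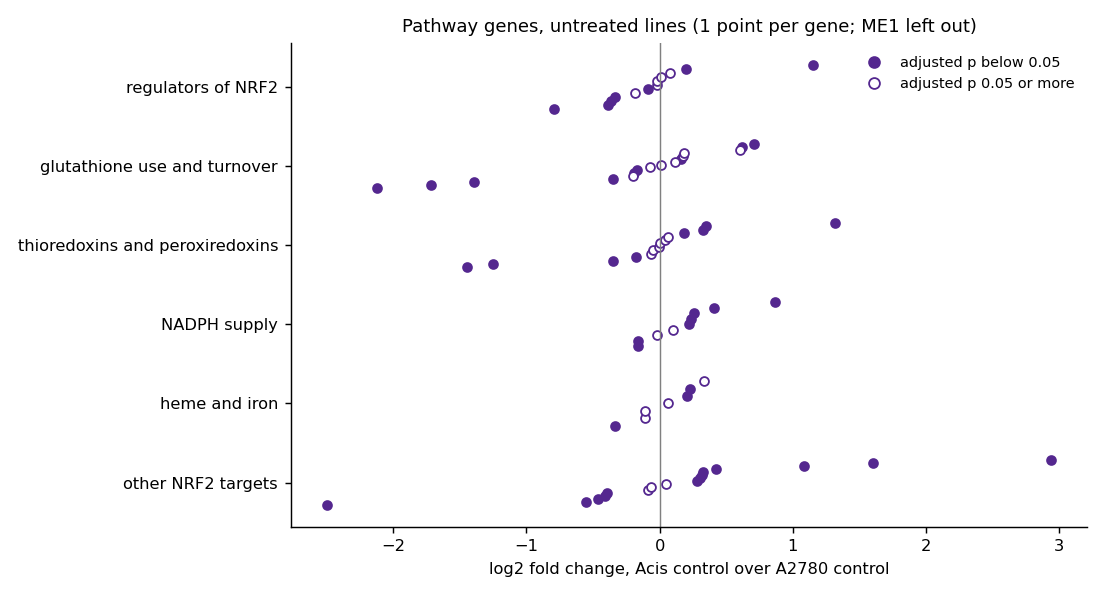
Log2 fold change of untreated Acis over untreated A2780 (horizontal axis) for the tested pathway genes other than ME1, by list (vertical axis). Each point is a gene, filled where the adjusted p was below 0.05, and points lie on both sides of 0 in each list.

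The gene whose level over the 12 libraries was most like each of the 10 was sought among 9328 genes with a mean of at least 100 normalized counts, by Pearson correlation of log2 levels. The libraries fall into 4 groups, so the values describe shared group patterns. OSGIN1 was most like MFSD9 (r = 0.996), SLC7A11 most like ACVR2B (0.996), HMOX1 most like SLC35C2 (0.996) and NQO1 most like LARP6 (0.993). GCLM was most like SIKE1 (0.991), GSR most like MMP10 (0.991), GCLC most like SSR3 (0.985) and TXNRD1 most like CDV3 (0.982). GSS was most like DPF2 (0.942), and SRXN1, with few counts, had the weakest match, RRAS2 (0.824).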

How the data were processed

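RNA-seq of A2780 and Acis, each with and without cisplatin (3 libraries per group), and ATAC-seq peak lists (1 per group) were used. Per the labels and the study's methods, the authors made the deposited counts from ribosomal RNA-depleted, stranded, single-end reads with STAR 2.7.3 on hg38, removed duplicates with Picard and counted reads per gene with htseq-count 0.11.1. Removing duplicates of single-end reads caps the counts of short, abundant genes, and the 10 genes had between 0.0024 and 0.273 counts per exon base. The annotation used for counting is not given in the sources used here. For ATAC-seq the authors trimmed with Cutadapt 1.15, aligned with Bowtie2 2.4.1, called peaks with MACS2 and kept those shared between replicates, and the deposited lists hold fold enrichment (a ratio over background) and −log10 q values. XR-seq samples were not analysed here.

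Counts were tested with edgeR 4.0.16 (R 4.3.3): TMM scaling, its default filter on low counts, a quasi-likelihood fit over all 12 libraries with 4 groups (8 residual degrees of freedom), Benjamini-Hochberg adjustment over 15760 genes and a call at an adjusted p below 0.05. The standard error is the log2 change divided by the square root of F. The fit was also run on simulated counts with a common spread for all genes and few genes changed. That setting differs from these data, so the run does not show error rates here. Library totals ran from 4130644 to 5072216. DESeq2 1.42.0, other scalings and filters, each library left out, a replicate block and merged replicates were alternatives. Gene starts are those of MANE Select or canonical transcripts in GENCODE 44, and motifs were searched on both strands with Python 3.11.15. RefSeq promoters were matched for 6 of the 10 genes, and GSS, GSR, HMOX1 and SLC7A11 were not matched. Named genes were the 10, up to 3 genes with the smallest adjusted p per list and comparison, and the most alike gene of each. The genes and lists were chosen with earlier results of these data known. Deviations of same-numbered replicates from their group means had correlations from -0.175 to 0.246. Replicates of unlike number were not compared as a reference, and numbers were not used for pairing. Some items are not reported here.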

Additional observations from a re-analysis of the deposited data

Results flagged for a closer look

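The effect of cisplatin differed between the lines for 2 of the 10 genes by the test of the difference itself (edgeR's quasi-likelihood test, Benjamini-Hochberg adjusted). Of all tested genes, 18.9% were called by this test in either direction, a share near 2 of 10. SLC7A11, the cystine transporter, changed by 0.48 more on the log2 scale in Acis than in A2780 (adjusted p = 0.000293), where it fell by 0.40 in A2780 and changed by 0.08 in Acis. OSGIN1 changed by -0.73 in Acis relative to A2780 (adjusted p = 0.047), on 12 to 15 counts per untreated A2780 library. Of 20 alternatives, 13 lost this OSGIN1 call.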

How the results depend on the processing

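Of 24 called changes of the 10 genes over the 5 comparisons, 19 kept their call under all alternatives run, 5 lost it under some (GSS in A2780, TXNRD1 in both line comparisons, SRXN1 in the treated lines and the OSGIN1 interaction) and none turned direction.

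Genes higher after cisplatin in A2780 numbered 5 with library totals or upper quartile factors (33.3% and 29.4% of all tested genes), beside 3 (21.2%) as reported. With a log2 change of at least 1 as well, 1 was higher (4.14%) and 0 were lower (1.48%). In Acis 3 were higher with library totals (14.7%) and 0 with the log2 rule (1.64%). The log2 rule left 1 higher and 1 lower in each line comparison, beside 6.99% and 12.2% untreated and 7.28% and 11.9% after cisplatin. For treated lines, 3 were higher with DESeq2 or a mean of at least 50 counts (17.5% and 33.9% of all genes under each setting). Shares with DESeq2 or without a filter are over all 23622 genes, low counts included. The filter on the mean leaves out SRXN1. The interaction gave 2 higher with the replicate block (GCLC and SLC7A11), beside 13.9% of all tested genes. With each library left out it gave 1 to 3 higher, beside 10.6% to 13.3%. It gave 0 lower without a filter, with merged replicates and with DESeq2 (2.58%, 3.88% and 1.24% of all genes). With each library left out it gave 0 to 1 lower, beside 3.23% to 6.4%. Among the left-out libraries, OSGIN1 kept that call only without A2780 cisplatin replicate 2 or without Acis control replicate 2. The block, whose numbers were not shown to pair samples, moved no other count by over 1.5 times.

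Changes of genes that did not pass the test turned sign as follows (log2). With library totals, GCLC was 0.0010 and GSR 0.0817 in A2780, GSR 0.0030 in Acis, and TXNRD1 -0.0341 and NQO1 -0.0452 in the interaction. With upper quartile factors, GSR was 0.0470 in A2780, and TXNRD1 -0.0216 and NQO1 -0.0327 in the interaction. With a mean of at least 50 counts, GSR was 0.0089 in A2780, and TXNRD1 -0.0039 and NQO1 -0.0151 in the interaction. Without a filter, TXNRD1 was -0.0164 in A2780, GSS -0.0009 in Acis and GSR 0.0011 in the interaction. With merged replicates, TXNRD1 was -0.0078 and SRXN1 -0.1187 in A2780, GSS -0.0190 in Acis and GSR 0.0042 in the interaction. GSS in Acis was -0.0077 with RLE and -0.0171 with DESeq2, and NQO1 was -0.0015 in the interaction with RLE. With each library left out, TXNRD1 ran from -0.0143 to 0.0365 and SRXN1 from -0.3432 to 0.3270 in A2780, GSS from -0.0506 to 0.0383 in Acis and from -0.0280 to 0.0611 between untreated lines, and NQO1 from -0.0197 to 0.0710 in the interaction. The cause was not tested.

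Peaks at the start numbered 8, 9, 8 and 7 with a −log10 q of at least 20, and 6, 7, 7 and 7 at the outermost annotated start, an alternative chosen after seeing the data. The share over all tested genes was not computed for either setting. SRXN1 and untreated A2780 OSGIN1 are limited by low counts.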
